A study of Mus musculus with 12 samples.

Results

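The difference between the responses of cumulus and mural granulosa cells to equine chorionic gonadotropin (eCG, named PMSG in the sample titles) was measured on all 12 arrays of the series. The arrays form a 2 by 2 design with 3 arrays in each of 4 groups, which are stimulated cumulus cells, unprimed cumulus cells, stimulated mural cells and unprimed mural cells. Stimulated mice were given 5 IU of eCG at 44 hours before the cells were taken, and unprimed mice were given no eCG. The mice were B6SJLF1 animals aged 22 days, each sample came from a pool of 5 mice, and the labels call the samples of a group biological replicates. A cumulus sample held the cells stripped from 200 cumulus-oocyte complexes, the oocytes being discarded, and a mural sample held clumps of a similar mass. The quantity tested was the interaction, defined as the log2 change in cumulus cells (stimulated minus unprimed) minus the log2 change in mural cells.

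Cumulus cells surround the oocyte inside the antral follicle, and mural granulosa cells line its wall. Gonadotropin with follicle-stimulating activity drives granulosa cells to grow and to take on new functions, among them estrogen synthesis and, in the follicle wall, readiness for the ovulatory surge of luteinizing hormone. Growth factors released by the oocyte act mainly on the cumulus cells next to it and are known to hold back some of the changes that gonadotropin induces in mural cells. A positive interaction can come from a rise in cumulus cells or from a fall in mural cells, and a negative one from a rise in mural cells or from a fall in cumulus cells, so each pattern is described apart.

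Array medians of the log2 values lay between 7.30 and 7.38, and replicates of a group correlated at 0.988 to 0.997 across probe sets. Of 41115 mouse probe sets, each named by an Ensembl transcript, the filter on low values kept 25917 (those above the array's filter level, 6.66 to 6.73 on the log2 scale, on 3 or more arrays), with 16809 distinct sets of values among them. Transcripts with identical values on every array cannot be told apart and were counted once. The identifiers are not paired with gene names in the files or in the gene table used here, so 4 transcripts are given by identifier, the other patterns by their counts and values, and the labelled cell types were not checked against marker genes. In samples of many cells, fewer cells of a type and less RNA per cell cannot be told apart. The spread between replicates and the number of arrays set the precision of every value.

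The response differed between the cell types in 548 of the 16809 distinct sets of values, or 3.26% of those tested (limma, adjusted p under 0.05). The log2 change was higher in cumulus than in mural cells in 311 sets (1.85%) and lower in 237 sets (1.41%). The median interaction was 0.89 among the 311 and -0.99 among the 237, against 0.01 over all sets tested. The smallest called interactions were 0.48 and -0.50, and 3237 sets (19.3%) had an unadjusted p under 0.05. When a single array was left out, the number higher became 197 (stimulated cumulus replicate 2), 151, 207 or 147 (unprimed cumulus replicate 1, 2 or 3), 140 or 187 (stimulated mural replicate 1 or 2), and 179 or 652 (unprimed mural replicate 1 or 3). The number lower became 373 (stimulated cumulus replicate 3), 136, 146 or 128 (unprimed cumulus replicate 1, 2 or 3), 120 (stimulated mural replicate 1) and 144 (unprimed mural replicate 1), while array weights gave 1263 higher and 824 lower. With the mean of added bacterial controls as a covariate, which was highest on the stimulated cumulus arrays, 27 were higher and 77 lower. With the mean of the bioB, bioC and bioD hybridization controls, 16 were higher and 66 lower. At an adjusted p under 0.01 the numbers were 78 and 89.

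**Figure D1:**
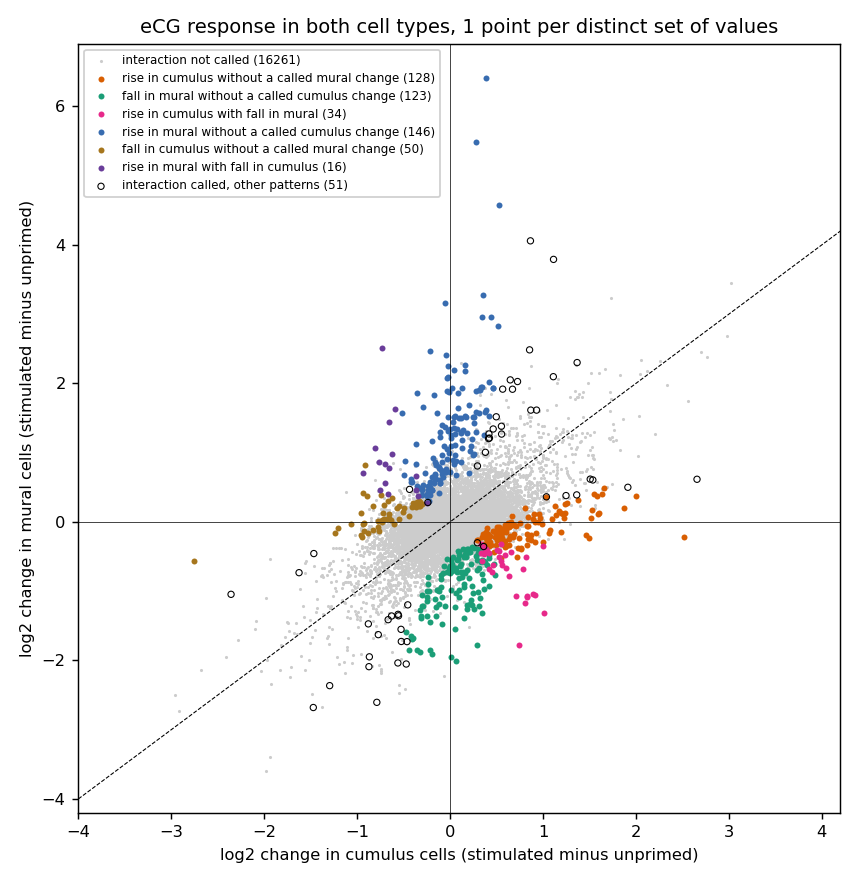
The log2 change in cumulus cells (horizontal axis) is set against the log2 change in mural cells (vertical axis) for 16809 distinct sets of values, with the dashed line marking equal responses. Coloured points are sets with a called interaction, sorted by which cell type had a called rise or fall; the farthest points lie above the line, where mural cells rose by up to 6.41.

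A rise in mural cells with no called change in cumulus cells was found in 146 distinct sets, the highest number of any pattern in the fit to all arrays, where 6.46% of all sets tested were called higher in stimulated than in unprimed mural cells. Their median log2 change was 1.12 in mural cells (quartiles 0.69 and 1.58), against -0.03 in cumulus cells (-0.19 and 0.16). In 81 of the 146 the mural rise was at least 2-fold. All 3 stimulated cumulus arrays lay above all 3 unprimed cumulus arrays in 13.7% of the 146 and below them in 15.1%. Over all sets tested the shares were 21.3% and 19.7%. Sets with a called cumulus change are left out of the pattern, which by itself lowers its shares. In 36 of the 146 the group mean lay under the array's filter level everywhere except in stimulated mural cells. Such sets passed the filter mainly through those arrays, so a difference there was part of their selection and the size of their rise is not exact. Without 1 array the number of sets in this pattern was 84 to 152. It moved by over 1.5 times without stimulated mural replicate 1, which gave 84, and without unprimed cumulus replicate 3, which gave 94. It was 400 with array weights, 67 and 53 with the covariates of added bacterial and hybridization controls, and 72 at an adjusted p under 0.01. It was not the highest number with array weights, with a filter at the 60th percentile, with a random block for same-numbered samples, or without stimulated cumulus replicate 3, stimulated mural replicate 3 or unprimed mural replicate 3.

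The transcript ENSMUST00000003659 had the lowest interaction of all. In cumulus cells its log2 values were 7.59, 6.57 and 6.65 with eCG, against 6.75, 6.50 and 6.40 without eCG. In mural cells they were 13.28, 12.83 and 13.46 with eCG, against 6.36, 7.30 and 6.69 without eCG. The stimulated mural arrays stood apart from the other 9, most of which lay under the filter level, and the cumulus groups overlapped. The log2 change was 0.39 ± 0.28 (SE) in cumulus cells and 6.41 ± 0.28 in mural cells, an interaction of -6.02 ± 0.40 (limma, adjusted p = 2.1e-05), and with 1 array left out it lay between -6.34 and -5.81. Since the low values are near the background, its size is not exact.

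ENSMUST00000024916 followed the same course. In cumulus cells it had log2 values of 5.51, 4.49 and 4.77 with eCG, against 4.71, 4.58 and 4.66 without eCG. In mural cells it had 11.07, 10.23 and 10.83 with eCG, against 4.67, 5.96 and 5.04 without eCG. Again the stimulated mural arrays alone were high, and the other 9 lay under the filter level. The interaction was -5.21 ± 0.45 (SE; limma, adjusted p = 9.5e-05) and has the same limit. The next transcript of this pattern had means of 6.10 ± 0.64 in stimulated cumulus cells, against 5.57 ± 0.27 in unprimed ones, and of 10.15 ± 0.45 in stimulated mural cells, against 5.58 ± 0.21 in unprimed ones (SD, n = 3 each), with an interaction of -4.04 ± 0.41 (SE; limma, adjusted p = 0.00028).

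A fall in mural cells with no called change in cumulus cells was found in 123 distinct sets with a positive interaction, where 8.35% of all sets tested were called lower in stimulated than in unprimed mural cells. Their median log2 change was -0.82 in mural cells (quartiles -1.20 and -0.58), against 0.09 in cumulus cells (-0.10 and 0.23). The mural fall was at least 2-fold in 45 of the 123. Stimulated cumulus arrays all lay above the unprimed ones in 24 of them (19.5%), all below in 17 (13.8%), and overlapped in 82. Over all sets tested the shares were 21.3% above and 19.7% below. The pattern leaves out sets with a called cumulus change, which by itself lowers its shares. The transcript with the largest interaction of this pattern had log2 values of 12.69, 12.61 and 13.04 in stimulated and 12.61, 12.97 and 12.55 in unprimed cumulus cells. In mural cells it had 9.88, 10.09 and 10.40 with eCG, against 12.38, 12.03 and 11.99 without eCG. Every stimulated mural array was thus below every other array, and the cumulus groups overlapped. It fell 4.03-fold in mural cells, with an interaction of 2.08 ± 0.24 (SE; limma, adjusted p = 0.00051). The number of sets in this pattern became 56 or 75 when stimulated mural replicate 1 or 2 was left out, 72 or 198 when unprimed mural replicate 1 or 3 was, and 532 with array weights. It was 19 and 7 with the covariates of added bacterial and hybridization controls, and 44 at an adjusted p under 0.01.

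A rise in cumulus cells with no called change in mural cells was found in 128 distinct sets, where 10.7% of all sets tested were called higher in stimulated than in unprimed cumulus cells. Their median log2 change was 0.63 in cumulus cells (quartiles 0.52 and 0.95), against -0.14 in mural cells (-0.23 and -0.01). The cumulus rise was at least 2-fold in 29 of the 128. In 10 of the 128 the group mean lay under the filter level everywhere except in stimulated cumulus cells. Such sets passed the filter mainly through those arrays, so a difference there was part of their selection and the size of their rise is not exact. In mural cells the estimate was below 0 in 98 of them. The stimulated mural arrays all lay below the unprimed ones in 22.7%, against 17% of all sets tested. The pattern required a positive interaction, which favours mural estimates below 0, so this excess was part of the selection. The missing mural call does not show that mural values were alike. The number of sets in this pattern was 42 to 356 with 1 array left out, and it stayed within 1.5 times of 128 only without stimulated mural replicate 3, while array weights gave 488. The number was 0 with the covariate of added bacterial controls, 3 with that of hybridization controls, and 27 at an adjusted p under 0.01. With these covariates any called cumulus change remained in 25 and 223 sets, against 3331 without them. Called mural changes numbered 2458 and 2749, against 2489. A count that needs a called cumulus change was therefore bound to fall. The added bacterial controls averaged 8.43 to 8.79 on the stimulated cumulus arrays and at most 7.84 on the other 9.

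ENSMUST00000038069 belonged to this pattern and had the highest interaction of all. Its log2 values were 9.77, 9.73 and 10.03 in stimulated cumulus cells, against 7.00, 8.14 and 6.82 in unprimed cumulus cells. In mural cells they were 6.52, 6.69 and 7.16 with eCG and 7.11, 7.51 and 6.40 without eCG. The stimulated cumulus arrays were above all others, and the mural groups overlapped close to the filter level. It rose 5.74-fold in cumulus cells (log2 change 2.52 ± 0.33 SE), with a log2 change of -0.22 ± 0.33 in mural cells and an interaction of 2.74 ± 0.46 (limma, adjusted p = 0.0067). The interaction lay between 2.49 and 3.15 with 1 array left out, and was not called with the covariate of added bacterial controls (limma, adjusted p = 0.25) or of hybridization controls (adjusted p = 0.3). The next in size, a set of values shared by 4 transcripts, had an interaction of 1.72 ± 0.35 (limma, adjusted p = 0.018), with a log2 change of 1.49 in cumulus and -0.23 in mural cells.

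A fall in cumulus cells with no called change in mural cells was found in 50 distinct sets, where 9.1% of all sets tested were called lower in stimulated than in unprimed cumulus cells. The median log2 change was -0.69 in cumulus cells (quartiles -0.89 and -0.46) and 0.13 in mural cells (-0.02 and 0.25), and the cumulus fall was at least 2-fold in 4 sets. The mural estimate was above 0 in 36 of the 50. All stimulated mural arrays lay above the unprimed ones in 32%, against 12.6% of all sets tested. The pattern required a negative interaction, which favours mural estimates above 0, so this excess was part of the selection. The transcript with the largest interaction here had log2 values of 8.60, 9.05 and 8.60 in stimulated and 11.81, 11.11 and 11.61 in unprimed cumulus cells. In mural cells it had 9.79, 10.20 and 10.28 with eCG, against 10.66, 10.46 and 10.84 without eCG. Neither pair of groups overlapped, and both cell types were lower after stimulation. It fell 6.78-fold in cumulus cells. Its mural log2 change of -0.56 ± 0.19 (SE; limma, adjusted p = 0.07) missed the threshold, and its interaction was -2.20 ± 0.27 (adjusted p = 0.00091). The number of sets in this pattern was 12 to 157 with 1 array left out, within 1.5 times of 50 only without stimulated mural replicate 3, and array weights gave 251. It was 6 and 5 with the covariates of added bacterial and hybridization controls, and 4 at an adjusted p under 0.01. Either control covariate left few called cumulus changes of any kind. Without stimulated cumulus replicate 3 this pattern, at 157, was more frequent than a rise or a fall in mural cells, at 152 each.

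**Figure D2:**
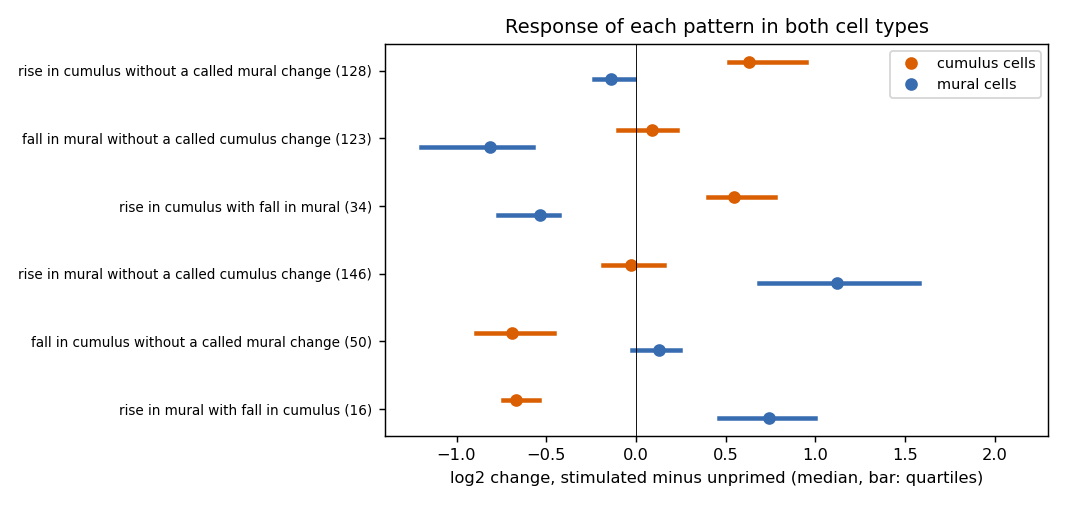
Log2 change with eCG (stimulated minus unprimed) of cumulus cells and of mural cells for 6 patterns of response, with the number of distinct sets of values in parentheses; points are medians and bars run between the quartiles. The largest median, 1.12, belongs to mural cells in the sets that rose there, with the cumulus median of the same sets at -0.03.

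Changes in opposite directions were called in 50 distinct sets with a called interaction. Over all sets tested, 10.7% were called higher and 9.1% lower in stimulated than in unprimed cumulus cells. In mural cells 6.46% were called higher and 8.35% lower. In 34 of them cumulus cells rose and mural cells fell, with median log2 changes of 0.55 and -0.54. In the other 16 cumulus cells fell and mural cells rose, with medians of -0.67 and 0.74. In 3 of the 16 all groups except stimulated mural cells had means under the filter level. Those 3 passed the filter mainly through the stimulated mural arrays, so their mural rise was part of the selection. The interaction was called with each of the 12 arrays left out in 28 of the 34 and 13 of the 16. The same was so in 78 of the 146 sets that rose in mural cells, 47 of the 123 that fell there, 33 of the 128 that rose in cumulus cells and 6 of the 50 that fell there. Opposite changes add up in the interaction, so requiring both to be called favours interactions that stay called. The median interaction was 1.10 in the 34 and -1.49 in the 16. In the other 4 patterns, in the order given, it was -1.10, 0.91, 0.78 and -0.73. Each such fit also reused all arrays but 1. These numbers therefore do not rank the patterns by how well they would repeat in new samples. The number with a called rise in cumulus and fall in mural cells was 6 to 38 with 1 array left out, and became 19 or 13 for stimulated cumulus replicate 1 or 2, 10 or 6 for unprimed cumulus replicate 1 or 3, 12 for stimulated mural replicate 1 and 15 for unprimed mural replicate 1. The number with the opposite signs was 10 without unprimed cumulus replicate 2 or 3, stimulated mural replicate 1 or unprimed mural replicate 1. Array weights gave 110 and 57, the covariate of added bacterial controls 0 and 0, that of hybridization controls 3 and 3, and an adjusted p under 0.01 gave 0 and 7. Their interactions, whatever the calls in each cell type, were also tested with the covariate of added bacterial controls. They were called again in 6 of the 34 and 8 of the 16. Few cumulus changes of any kind were called with either control covariate.

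ENSMUST00000033023, whose values were shared by 1 other transcript, had the highest interaction among changes in opposite directions. Its log2 values were 10.63, 10.51 and 11.04 in stimulated cumulus cells, against 9.65, 10.31 and 9.99 in unprimed cumulus cells. In mural cells they were 6.57, 6.62 and 7.23 with eCG, against 8.66, 8.62 and 8.49 without eCG. Neither pair of groups overlapped, and the cumulus groups lay apart by a narrow margin. Cumulus cells rose by 0.74 ± 0.20 (SE) and mural cells fell by 1.78 on the log2 scale, an interaction of 2.53 ± 0.28 (limma, adjusted p = 0.00049), with stimulated mural values near the filter level. Among sets that fell in cumulus and rose in mural cells, the largest interaction was -3.24 ± 0.24 (limma, adjusted p = 2.4e-05), shared by a pair of transcripts. That set had means of 6.18 ± 0.23 in stimulated cumulus cells, against 6.91 ± 0.11 in unprimed ones, and of 10.02 ± 0.36 in stimulated mural cells, against 7.51 ± 0.17 in unprimed ones (SD, n = 3 each).

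**Figure D3:**
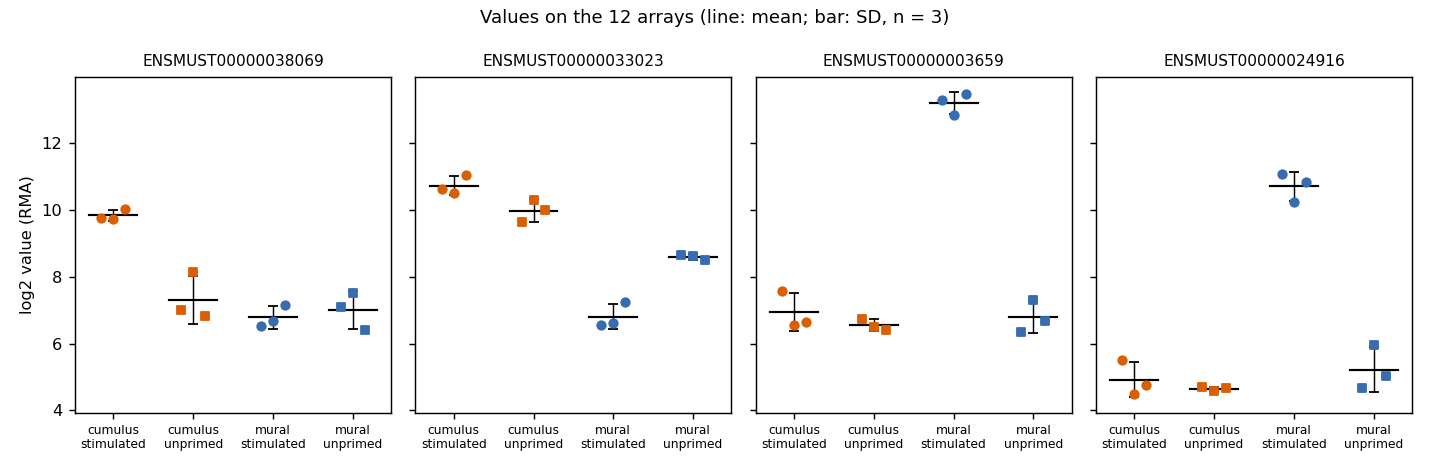
Log2 values on all 12 arrays for the 2 transcripts with the highest and the 2 with the lowest called interaction; points are arrays, lines are group means and bars are SDs (n = 3). ENSMUST00000038069 is high in stimulated cumulus cells alone, ENSMUST00000033023 parts in opposite directions, and ENSMUST00000003659 and ENSMUST00000024916 are high in stimulated mural cells alone.

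Among the 548 sets with a called interaction, both cell types had a called change in the same direction, by unequal amounts, in 47. Shared changes without a called interaction are not in this number, and their share over all sets tested was not counted. Both rose in 27 sets, with the larger rise in mural cells in 20 and in cumulus cells in 7. In 5 of the 20 all groups except stimulated mural cells had means under the filter level. A larger mural rise was part of the selection of those 5. Both fell in 20 sets, with the larger fall in mural cells in 17 and in cumulus cells in 3. The largest interaction among shared rises was -3.19 ± 0.23 (SE; limma, adjusted p = 2.4e-05), from a transcript whose log2 change was 0.86 in cumulus cells, against 4.06 in mural cells. Its cumulus values and its unprimed mural values lay under the filter level. The largest among shared rises favouring cumulus cells was 2.04 ± 0.22 (limma, adjusted p = 0.00041), from a transcript that rose 6.31-fold in cumulus and 1.53-fold in mural cells. A further 4 sets had a called interaction and no called change in either cell type, with interactions of 0.59 and 0.72 in the positive pair and -0.52 and -0.91 in the negative pair.

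An interaction of -2 or lower was called in 25 sets and one of 2 or higher in 6. Of the 25, 24 had a higher mural value after stimulation, with a median mural log2 change of 2.41 and a median cumulus change of -0.02. In 13 of the 25 all groups except stimulated mural cells had means under the filter level. These passed the filter mainly through the stimulated mural arrays, so their direction was part of that selection. An absolute interaction of at least 1, reached by 1.93% of all sets tested whether called or not, was called in 121 sets on the positive side and 116 on the negative side. The 116 had a median log2 change of 0.01 in cumulus cells, against 1.50 in mural cells, and the 121 had 0.46 in cumulus cells, against -0.92 in mural cells. The mural change was the larger in absolute size in 100 of the 116 and in 75 of the 121, against 43.7% of all sets tested. That share takes in sets without a large interaction, so it is no matched reference. In 32 of the 116 all groups except stimulated mural cells had means under the filter level. A larger mural change was part of the selection of those 32.

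Seen as a change in the difference between the cell types, most called interactions came with a difference called only after stimulation, or larger after it. In 320 of the 548 sets the cell types did not differ by a called amount in unprimed mice and did so in stimulated mice. In 160 a difference was called at both stages and was larger after stimulation. In 42 the difference was called in unprimed mice and missed the threshold in stimulated mice, in 8 it was called at both and smaller after stimulation, and in 18 the order of the cell types turned. Of the 42, 37 had a positive interaction, so mural cells had the higher value in unprimed mice. Of the 18 that turned, 15 were higher in cumulus cells of stimulated mice and higher in mural cells of unprimed mice. Over all sets tested the cell types differed in 42.3% in stimulated mice and 21.6% in unprimed mice. The adjustment was made apart for each stage, so the cutoff was looser in stimulated mice, where more sets were called. By itself this favours differences called only after stimulation. The share of all sets tested with a difference called only then was not counted, so the 320 have no matched reference.

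**Figure D4:**
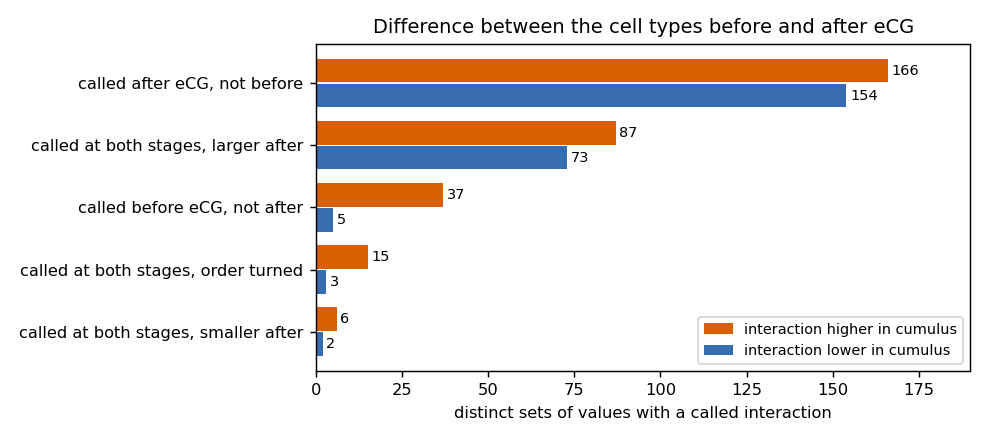
Number of distinct sets with a called interaction (horizontal axis, from 0), split by whether the difference between cumulus and mural cells was called after stimulation, before it or at both stages, and by the sign of the interaction. Differences called after stimulation alone are near balance (166 and 154), whereas differences called in unprimed mice alone lean to positive interactions (37 and 5).

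Some control probe sets of the manufacturer carry gene names. Pyruvate carboxylase, an enzyme that feeds pyruvate into the citric acid cycle as oxaloacetate, had a 3′ probe set with log2 values of 7.46, 7.77 and 7.30 in stimulated cumulus cells, against 7.96, 7.78 and 7.92 in unprimed cumulus cells. In mural cells it had 8.69, 8.45 and 8.59 with eCG, against 8.14, 8.23 and 8.23 without eCG. Every group was apart from its partner, by a narrow margin in cumulus cells. The log2 change was -0.38 ± 0.12 (SE; limma, adjusted p = 0.013) in cumulus cells and 0.38 ± 0.12 (adjusted p = 0.12) in mural cells. The interaction was -0.76 ± 0.17 (SE; limma, adjusted p = 0.013 over 64 control probe sets). The cumulus and mural changes were of nearly equal size with the same SE. Their adjusted p-values were taken over the same 64 control probe sets, which included the added bacterial RNAs. The gap between those p-values therefore does not set the cumulus fall above the mural rise. The other 3 probe sets of this gene had interactions of -0.06, -0.01 and -0.28, with adjusted p-values of 0.8, 0.97 and 0.13. The 3′ probe sets of Gapdh (a glycolytic enzyme), beta-actin (a part of the cytoskeleton) and the transferrin receptor (which takes up iron) had interactions of -0.08 ± 0.11, 0.02 ± 0.11 and -0.12 ± 0.12, with adjusted p-values of 0.64, 0.91 and 0.44. The transferrin receptor probe set had group means of 5.24 to 5.42, under the filter level, so its value says nothing of the gene's response. Of the 19 control probe sets for mouse sequences, 1 had a called interaction when adjusted over all 64.

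Controls with no mouse target moved with the interaction as well. The 24 dap, lys, phe and thr probe sets, for bacterial RNAs commonly added before amplification, averaged 8.63, 8.79 and 8.43 on the stimulated and 7.80, 7.59 and 7.69 on the unprimed cumulus arrays. On the mural arrays they averaged 7.57, 7.57 and 7.75 with eCG and 7.32, 7.84 and 7.23 without eCG. The stimulated cumulus arrays were above all others. The 24 probe sets had a median interaction of 0.82, and 20 of them were called above 0. The 18 bioB, bioC, bioD and cre probe sets, for RNAs commonly added at hybridization, had a median interaction of 0.47, with 12 called above 0. The 3 trpn probe sets had -0.05 with none called by limma (0 at an unadjusted p under 0.05). These calls were adjusted over the 64 control probe sets alone, which gave a looser cutoff than for the mouse sets. A dap probe set was called at 0.88 ± 0.28 (SE; limma, adjusted p = 0.028). A mouse set at -0.91 ± 0.23 lay at the threshold (limma, adjusted p = 0.05). The numbers called are therefore not comparable with those of the mouse sets. Several probe sets measured each added RNA, so they are not independent. With the mean of the added bacterial controls as a covariate, the median standard error grew by a factor of 1.40, and 25 of the 311 positive and 64 of the 237 negative interactions were called again. All 548 kept their sign in that fit. It called 46 of the 146 sets that rose in mural cells again, and 3 of the 128 that rose in cumulus cells. It called 12 of the 123 that fell in mural cells again, and 4 of the 50 that fell in cumulus cells. Medians were taken over every set of a pattern, called again or not. The median interaction of all 146 was -1.15 with the covariate, against -1.10 without it. That of all 128 was 0.55, against 0.78 without it. For all 123 it was 0.81, against 0.91, and for all 50 it was -0.56, against -0.73. ENSMUST00000038069 was not called in that fit, at 2.24 ± 0.70 (SE; limma, adjusted p = 0.25), and the other 3 transcripts given by identifier were.

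**Figure D5:**
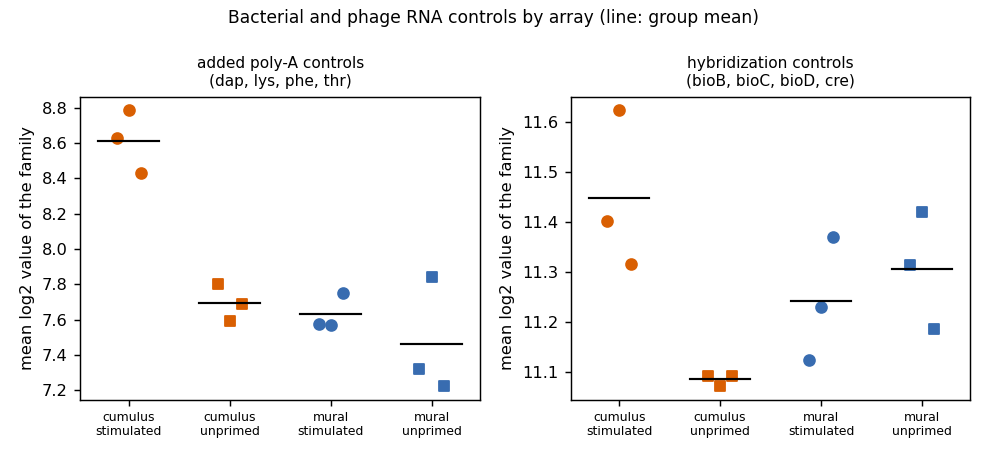
Mean log2 value of the added bacterial controls (left) and of the hybridization controls (right) on each array; points are arrays and lines are group means. Stimulated cumulus arrays lie highest on the left, at 8.43 to 8.79, and no mural or unprimed array exceeds 7.84.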

How the data were processed

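RNA was profiled on Affymetrix arrays, and the authors deposited 1 log2 value per probe set and array. Per the submitters' processing notes these came from RMA in the affy package, which makes array distributions alike. Their versions, the array model and the genome build are not stated by these sources. The labelled RNA was amplified repeatedly from 20 ng, per the labels' protocols. The 64 control probe sets were set apart. Testing was limited to probe sets that exceeded the 40th percentile of 3 or more arrays. The 12 arrays entered a single linear model with 4 group means (lmFit, then eBayes, from limma 3.58.1 under R 4.3.3), with Benjamini-Hochberg adjustment over 25917 probe sets in each contrast and a threshold of 0.05. Control probe sets were fitted alongside and adjusted over 64. Identical rows were then counted once. No 2 arrays shared more than 0.0631% identical values. The RefSeq table of GRCm38.p6 matched 0 identifiers, so the planned gene lists and cell type markers were not used. The naming rule for data without gene names took the 2 highest and 2 lowest called interactions, and leading sets of other patterns, chosen after their values were seen, are given without identifiers. Patterns and alternatives were chosen with earlier results of these data known. The fit was tested on simulated data. Alternatives changed the filter, scaling, weights, replicate block, prior, covariate, collapse of identical rows, threshold and arrays. Figures used matplotlib 3.10.9 in Python 3.11.15.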

Additional observations from a re-analysis of the deposited data

Results flagged for a closer look

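The difference in response between the cell types was itself tested, and 5 single results are given again because of it. The interactions were 2.74 for ENSMUST00000038069, 2.53 for ENSMUST00000033023, -6.02 for ENSMUST00000003659, -5.21 for ENSMUST00000024916 and -0.76 for the 3′ probe set of pyruvate carboxylase. Values far from the rest of a group were not searched for, since groups of 3 arrays are too small.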

How the results depend on the processing

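Both direction counts and all 6 pattern counts stayed within 1.5 times with no filter, with a filter at the 60th percentile, median centring, cyclic loess, a trended robust prior, and identical rows collapsed first. Positive and negative interactions numbered 1263 and 824 with array weights, 78 and 89 at an adjusted p of 0.01, 27 and 77 with the covariate of added bacterial controls, and 16 and 66 with the mean of the bioB, bioC and bioD controls as a covariate, which was chosen after seeing the data. In the same order of settings, rises in cumulus cells numbered 488, 27, 0 and 3, falls in mural cells 532, 44, 19 and 7, and cumulus rises with mural falls 110, 0, 0 and 3. Rises in mural cells numbered 400, 72, 67 and 53, falls in cumulus cells 251, 4, 6 and 5, and mural rises with cumulus falls 57, 7, 0 and 3. With 1 array left out the ranges were 140 to 652 positive and 120 to 373 negative interactions, 42 to 356 cumulus rises, 56 to 198 mural falls, 6 to 38 cumulus rises with mural falls, 84 to 152 mural rises, 12 to 157 cumulus falls and 10 to 24 mural rises with cumulus falls. The causes of these shifts were not tested. The control covariates left 25 and 223 sets with any called cumulus change, against 3331 without them. Counts that need such a call were bound to be low. Fewer arrays lower the power, and array weights gave 8.61 to unprimed mural replicate 1 against 0.37 and 0.49 for the other 2 unprimed mural arrays. None of the 548 interactions called with all arrays was called with the opposite sign in any setting. Of the 4 transcripts given by identifier, ENSMUST00000038069 missed the threshold with either control covariate (2.24 and 2.06), and the other 3 were called in every setting. The labels do not say whether samples of one replicate number share mice or a day, so the number was not used as a block in the reported fit. Deviations from group means correlated between -0.54 and 0.42 for same-numbered arrays, over 0.1 in 8 of 18 pairs, among them all 3 pairs of unprimed cumulus and unprimed mural arrays (0.11, 0.31 and 0.42), and 5 of 12 arrays correlated best with an array of their own number. With the replicate block 244 interactions were positive and 186 negative, and falls in cumulus cells numbered 32. With a random block for the cumulus and mural samples of one number within stimulated or unprimed mice, a fit chosen after seeing the data (consensus correlation 0.13), 573 were positive and 382 negative, with 247 cumulus rises, 207 mural falls and 98 cumulus falls, and the other 3 pattern counts stayed within 1.5 times.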
